A study of Homo sapiens with 4 samples.

Results

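The extended major histocompatibility complex (MHC) and the histone gene cluster beside it lie on the short arm of human chromosome 6. The peaks described here are those deposited peaks whose midpoint falls from 25.7 to 33.5 Mb of chromosome 6 (hg19). There are 622 such peaks, out of 160601 distinct peaks in the whole list and 12338 on chromosome 6. The 7.8 Mb were divided at 28.0, 29.6, 31.4 and 32.2 Mb into spans of histone genes, extended class I, class I, class III and class II, and they are set against the other 4083 peaks of the short arm. The choice used positions only and no measured value, but it was made with earlier results of these data known.

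The peaks come from HepG2, a human cell line from a liver tumour, grown in high-glucose medium with serum. The knockdown cells received an siRNA against LSD2 (gene KDM1B), and the control cells received the siRNA that the file header calls siGL3. Chromatin immunoprecipitation (ChIP) used an antibody to H3K4me1, the monomethylated lysine of the histone H3 tail, in 1 knockdown library and 1 control library, and each condition also had 1 input library, which the header does not name in the peak call. A peak is a region where MACS found more knockdown reads than control reads. Both siRNAs were transfected into 1 cell line, no group was replicated, and the level of LSD2 was not analysed here.

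H3K4me1 marks enhancers and the flanks of active promoters, and LSD2 is a demethylase of that residue. The region joins gene families of very different kinds. Histone genes are short, lack introns in most cases, and are transcribed when DNA is replicated. The MHC genes of class I and class II encode the proteins that show peptides to T cells; class I is made in nearly all nucleated cells and class II mainly in antigen-presenting cells of the immune system. Class III lies between them and holds complement, cytokine, heat shock and many unrelated genes.

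Peak density over the whole region was close to that of the rest of the short arm, but the spans differed. The region held 79.7 peaks per Mb (95% Poisson interval 73.6 to 86.3), against 80.3 (77.8 to 82.8) in the rest of the short arm, a ratio of 0.993 (exact 95% interval 0.911 to 1.08). Extended class I was the densest span, with 96.2 peaks per Mb (81.7 to 112.7). Histone genes had 83.5 (72.1 to 96.2) and class I had 82.8 (70.0 to 97.2). Class II had 63.8 (50.9 to 79.2) and class III had the fewest, 55.0 (39.96 to 73.8). Relative to the rest of the short arm the ratio was 1.20 for extended class I (1.01 to 1.41), 0.795 for class II (0.632 to 0.988) and 0.685 for class III (0.497 to 0.921). The intervals of histone genes (ratio 1.04, 0.895 to 1.20) and class I (ratio 1.03, 0.870 to 1.21) include 1. The difference of class II is not stable, since its interval also includes 1 when the borders move by 100 kb (0.864, 0.693 to 1.06, and 0.815, 0.650 to 1.01) and when peaks within 1 kb are merged (0.833, 0.656 to 1.04). With peaks at or above the median width of the list alone, the intervals of extended class I (1.17, 0.928 to 1.46), class III (0.811, 0.538 to 1.18) and class II (0.820, 0.598 to 1.10) all included 1. The low values of class II and class III are relative to the short arm: against the autosomes outside the region the ratios were 1.10 (0.872 to 1.36) and 0.944 (0.686 to 1.27). The intervals take each peak as an independent count and include no other error. In 507 windows of 100 kb in the rest of the short arm, the mean was 8.04 peaks and the SD 3.44. That spread is larger than independent counts would give, so the intervals are too narrow. Limits close to 1, as for extended class I and class II, could pass 1 if widened. With 1 library per condition no test between conditions was possible. The depth of the libraries is unknown.

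Among the 10 pairs of spans, 5 had a density ratio whose interval left out 1. Class III was sparser than histone genes (histone genes over class III 1.52, 1.09 to 2.16), than extended class I (1.75, 1.24 to 2.51) and than class I (1.51, 1.07 to 2.16). Class II was sparser than histone genes (1.31, 1.01 to 1.71) and than extended class I (1.51, 1.15 to 1.99). The ratio of class I to class II was 1.30 (0.985 to 1.72), and that of class III to class II was 0.861 (0.584 to 1.26). Intervals were not widened for the number of pairs or for the uneven spread of peaks.

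**Figure D1:**
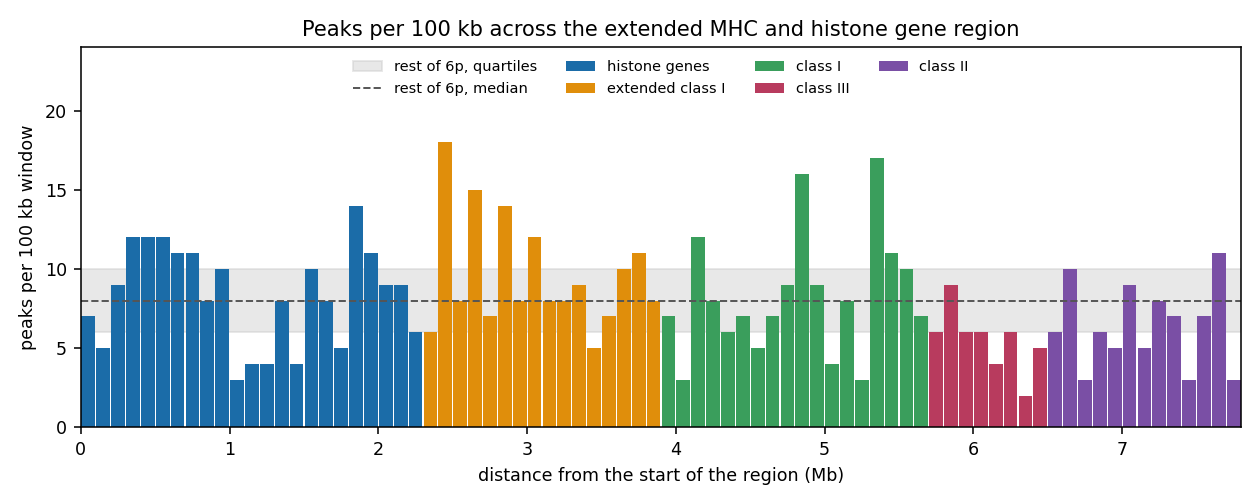
Number of peaks (vertical axis) in each window of 100 kb along the region (horizontal axis, distance from its start in Mb), coloured by span. The grey band and dashed line give the quartiles (6 and 10) and the median (8) of 507 windows in the rest of the short arm. No class III window rises above the band.

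The windows of 100 kb show where the differences lie. All 78 windows of the region held a peak, and their counts ran from 2 to 18, with 7.97 ± 3.42 peaks per window (SD over windows), against 8.04 ± 3.44 over 507 windows in the rest of the short arm. In class III the 8 windows held, in order along the chromosome, 6, 9, 6, 6, 4, 6, 2 and 5 peaks. Of these, 7 were below the median of 8 in the rest of the short arm and 0 were above its upper quartile of 10, which 20.5% of the windows there exceeded. In the rest of the short arm, 236 of 507 windows were below that median. In class II, 9 of 13 windows were below it and 1 exceeded the upper quartile. In extended class I, 5 of 16 windows exceeded the upper quartile and 1 was below the lower quartile of 6. The median window of that span held 8 peaks, as in the rest of the short arm. Above that median were 7 of its 16 windows, against 208 of 507 in the rest. In histone genes, 7 of 23 windows (30.4%) exceeded the upper quartile and 6 (26.1%) were below the lower quartile, against 20.5% and 23.9% of the windows in the rest of the short arm, and the SD over windows was 3.13 peaks.

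Within the histone gene span, peak counts differed between stretches of 500 kb. From 26200001 to 26700000 it held 52 peaks, and 55.8% of these were 400 bp or wider. The next 500 kb, from 26700001 to 27200000, held 23 peaks, of which 13.0% were that wide. From 27200001 to 27700000 it held 48. The gene table of GRCh38.p14 lists 55 histone genes in the order from H2AC1 to H2BC17. Of these, 6 encode linker histone H1, which binds DNA between nucleosomes, and 12 H2A, 15 H2B, 10 H3 and 12 H4 genes encode the proteins of the nucleosome core. Between them lie 6 butyrophilin genes (BTN), whose products act on T cells. In gene order from H2AC1 to OR2B6, the span lists 76 protein-coding genes in all and 100 tRNA genes. Peaks were not assigned to genes, because no hg19 annotation was used here.

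The widest peak of the whole region lay there, from 26350645 to 26352691 (2047 bp), and the next of this span ran from 27752605 to 27754257 (1653 bp). Of the 24 peaks of the region that were wider than or equal to 1 kb, 11 were in this span, 3 in extended class I, 5 in class I, 4 in class III and 1 in class II. As a share of the peaks of each span these were 5.73% among histone genes (95% Wilson interval 3.23 to 9.97%), 1.95% in extended class I, 3.36% in class I, 9.09% in class III (3.59 to 21.2%) and 1.20% in class II, against 2.01% (1.62 to 2.49%) in the rest of the short arm. The densest windows of the span began at 27500001, with 14 peaks, and at 26000001, with 12. Its longest stretches without a peak both fell between 26700001 and 27200000, from 26836477 to 26891661 (55.2 kb) and from 26776534 to 26824199 (47.7 kb).

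Extended class I was the densest span, and peak width changed along it. Its gene order runs from ZNF165 to GABBR1, a receptor of the neurotransmitter GABA. It contains 12 zinc finger and SCAN domain genes, which encode DNA-binding proteins, followed by 14 olfactory receptor genes, whose products detect odours in the nose. The densest window of the whole region began at 28100001 with 18 peaks, and the next of this span at 28300001 with 15. From 28200001 to 28700000 the median width was 374 bp and 44.2% of 52 peaks were 400 bp or wider. From 29200001 to 29700000, a stretch that reaches into class I, the median width was 239 bp and 9.30% of 43 peaks were that wide. The widest peaks of the span lay side by side, from 28885581 to 28886766 (1186 bp) and from 28887342 to 28888801 (1460 bp). Its longest stretch without a peak ran from 28917088 to 28976892 (59.8 kb), with other peaks between it and the wide pair.

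Class I had the density of the rest of the short arm, with the longest empty stretches of the region. Its gene order from MOG to MICA holds the class I genes of the MHC, whose products present peptides to cytotoxic T cells. It also holds 6 TRIM genes, a family that includes antiviral proteins. No peak lay from 29743587 to 29816764 (73.2 kb) or from 29961502 to 30032065 (70.6 kb). The longest empty stretch in the rest of the short arm, which spans 50.9 Mb, was 179.7 kb. The densest windows began at 31000001, with 17 peaks, and at 30500001, with 16. The widest peak, 1313 bp, ran from 30883529 to 30884841, and the next, 1261 bp, from 31053920 to 31055180. A peak-free stretch does not tell unchanged signal from signal that was lower or could not be mapped.

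Class III had the fewest peaks per protein-coding gene and the most such genes for its length. Its gene order from MICB to NOTCH4 lists 60 protein-coding genes, against 44 peaks, or 0.733 peaks per gene. The other spans had 2.53 peaks per gene for histone genes, 4.53 for extended class I, 2.98 for class I and 2.08 for class II. Class III had its 60 genes in 0.8 Mb. The others had 76 in 2.3 Mb (histone genes), 34 in 1.6 Mb (extended class I), 50 in 1.8 Mb (class I) and 40 in 1.3 Mb (class II). The low value thus depends on gene number as well as on peak number, and no peak was assigned to a gene. No such value was computed for the rest of the short arm. Among the class III genes are 4 complement genes (C2, CFB, C4A and C4B), whose products act in the complement cascade against microbes, 3 genes of the TNF family (LTA, TNF and LTB), which encode inflammatory cytokines, and 3 HSP70 genes, whose products help proteins fold under stress. The widest peak, 1562 bp, ran from 31635565 to 31637126, and the next, 1220 bp, from 31685721 to 31686940. The longest empty stretches ran from 32028591 to 32087046 (58.5 kb) and from 31791871 to 31838581 (46.7 kb). By bases covered, class III was closer to the rest of the short arm than by peaks, with 26.9 kb of peak per Mb against 29.9 kb per Mb.

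Class II had fewer peaks per Mb than the rest of the short arm, a difference that was not stable, and the fewest bases covered. Its gene order from TSBP1 to ZBTB9 contains 13 HLA class II genes, from HLA-DRA to HLA-DPB1. Most of these present peptides to helper T cells, while HLA-DM and HLA-DO act on the loading of those peptides. The span also contains 5 genes of peptide supply to class I (TAP1, TAP2, TAPBP, PSMB8 and PSMB9). Peaks covered 21.7 kb per Mb, the least of the 5 spans. The densest windows began at 33300001, with 11 peaks, and at 32300001, with 10. The widest peak, 1036 bp, ran from 33169780 to 33170815, and the next, 987 bp, from 33376458 to 33377444. The longest empty stretches ran from 33432786 to 33491704 (58.9 kb) and from 32794204 to 32837740 (43.5 kb).

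**Figure D2:**
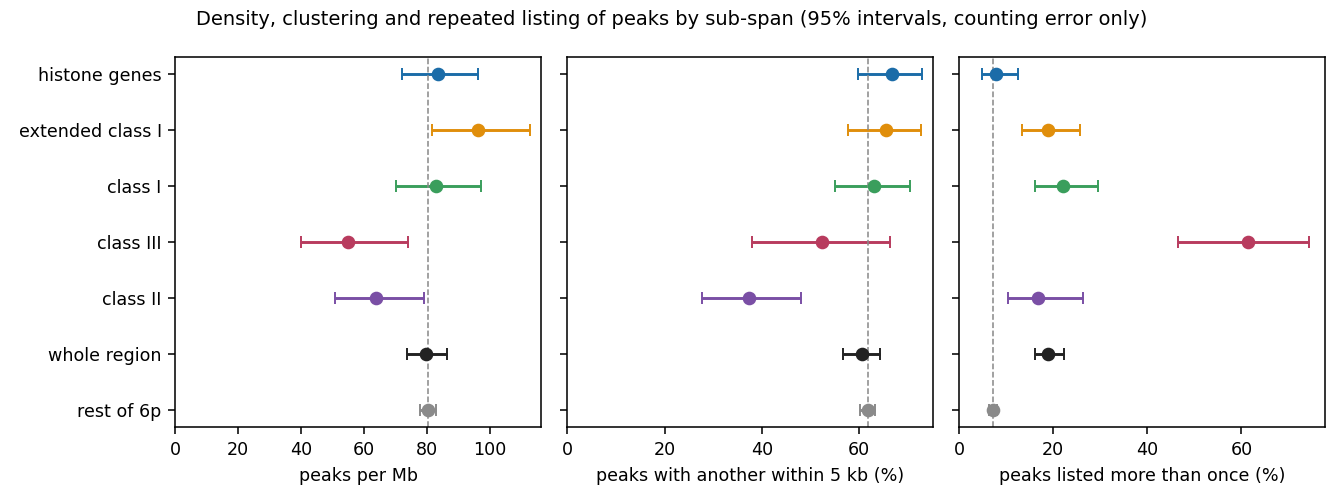
Peaks per Mb (left), share of peaks with another within 5 kb (middle) and share of peaks listed more than once (right) for the 5 spans, the whole region and the rest of the short arm (dashed line). Points are values and bars are 95% intervals for counting error only. Class III stands at 61.4% in the right panel, against 7.15% in the rest of the short arm.

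Peaks of class II were spaced farther apart than those of the other spans but class III. Another peak lay within 5 kb of 37.3% of class II peaks (95% Wilson interval 27.7 to 48.1%), against 61.7% (60.2 to 63.2%) in the rest of the short arm. The share was 52.3% (37.9 to 66.2%) in class III, 63.1% (55.1 to 70.4%) in class I, 65.6% (57.8 to 72.6%) in extended class I and 66.7% (59.7 to 72.95%) among the histone genes. Over the whole list it was 52.2%, near the share of class III and above the interval of class II. The median gap from one peak to the next was 12.6 kb in class II and 13.7 kb in class III, against 7.61 kb in the rest of the short arm. It was 7.64 kb among histone genes, 6.15 kb in extended class I and 7.07 kb in class I. Gap and density are not independent measures. No run of 5 or more peaks with gaps under 2 kb occurred in the region. The 5 runs of 4 such peaks lay in histone genes (3 runs), extended class I (1 run) and class I (1 run), the shortest from 26422207 to 26424959.

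The region had a larger share of wide peaks than the rest of the short arm, most of all in class III and the histone gene span. Span names stand for positions, and no peak was assigned to a gene. Of all 622 peaks, 35.9% were 400 bp or wider (95% Wilson interval 32.2 to 39.7%), against 29.2% (27.9 to 30.7%) in the rest of the short arm. The share was 45.5% in class III (31.7 to 59.9%), 39.1% among histone genes (32.4 to 46.1%), 36.4% in extended class I (29.2 to 44.2%), 36.2% in class I (28.96 to 44.2%) and 21.7% in class II (14.2 to 31.7%). Over the whole list it was 23.8%, which the interval of class II includes. The intervals of class III and the histone genes lay above that of the rest of the short arm, and those of the other 3 spans overlapped it. Median widths were nearer each other, with 341.5 bp in the region (order-statistic 95% interval 326 to 361 bp) against 329 bp (324 to 334 bp) in the rest of the short arm. They ran from 319 bp in class II (299 to 354 bp) through 331 bp in extended class I, 348 bp in class I and 352.5 bp among histone genes to 374.5 bp in class III (311 to 558 bp), with intervals that overlap. The upper quartile was 491.5 bp in the region, against 412 bp in the rest of the short arm.

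**Figure D3:**
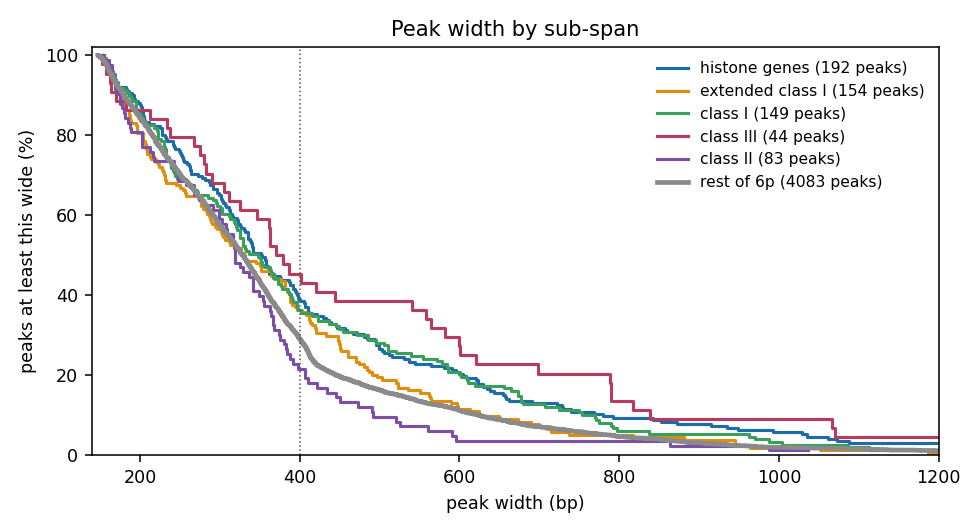
Share of peaks (vertical axis, percent) that are at least as wide as the value on the horizontal axis (bp; the few peaks wider than the axis are not shown), for the 5 spans and the rest of the short arm (thick grey). The dotted line marks 400 bp, where class III stands at 45.5% and class II at 21.7%.

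Some peaks were written in several identical rows of the deposited list, and this was most frequent in class III. The 622 peaks took up 776 rows. In the region 118 peaks were listed more than once (18.97%, 95% Wilson interval 16.1 to 22.2%), against 292 peaks (7.15%, 6.40 to 7.98%) in the rest of the short arm. In class III it was 27 of 44 peaks (61.4%, 46.6 to 74.3%), and 11 of them were listed 3 or more times. Class I had 33 such peaks (22.1%, 16.2 to 29.5%), extended class I 29 (18.8%, 13.4 to 25.7%) and class II 14 (16.9%, 10.3 to 26.3%). Histone genes had 15 (7.81%, 4.79 to 12.5%), with an interval that includes the share of the rest of the short arm. Over the whole list the share was 10.7%, which the intervals of histone genes and class II include. The peak with the most rows, 6, lay in class III from 31683269 to 31683712, and the next of this span, with 4, from 31510762 to 31511459. In extended class I the most was 4 rows, from 29403832 to 29404393, and in class II 4 rows, from 33164320 to 33164638. No peak of class I or of the histone genes had more than 3 rows; the first with 3 lay from 29717337 to 29717531 in class I and from 26197882 to 26198572 among the histone genes.

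Peaks listed more than once followed each other along the chromosome. In 11 stretches, at least 4 consecutive peaks were listed more than once, and these held 60 of the 118 peaks. The peak after a repeated one was also repeated for 54.2% of the 118 peaks in the region, against 55.1% of the 292 in the rest of the short arm. The 2 values are not directly comparable, since 19.0% of all peaks were repeated in the region and 7.15% in the rest. By span it was 21 of 27 in class III, where 61.4% of all peaks were repeated, and 19 of 29 in extended class I (18.8%). It was 15 of 33 in class I (22.1%), 6 of 14 in class II (16.9%) and 3 of 15 in histone genes (7.81%). Whether the stretches exceed what these shares alone would give was not tested. Of the 11 stretches, class III had 4, the longest from 31861006 to 31981342 with 8 peaks and the next from 31617294 to 31718243 with 7. Extended class I had 3, including the one with the most peaks, 9, from 29361995 to 29427779, which were listed 2 to 4 times. Class I had 3, class II had 1, from 33238742 to 33287818, and histone genes had none. In the gene table of GRCh38.p14, 26 of the 60 protein-coding genes of class III overlap another protein-coding gene. In class I these were 15 of 50 genes, in class II 8 of 40, in extended class I 6 of 34 and in the histone gene span 6 of 76. The order of the 5 spans by this share was that of repeated listing, except that extended class I and class II changed places. The part of gene overlap in the repeated rows was not tested, and the file header does not say what a repeated row stands for.

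**Figure D4:**
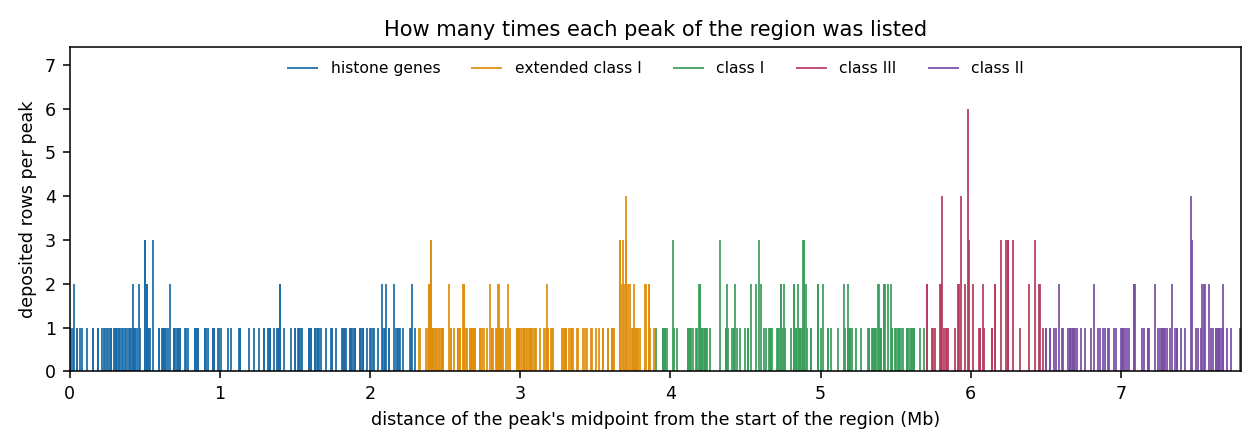
Number of identical deposited rows (vertical axis) for each of the 622 peaks, by distance of the peak's midpoint from the start of the region (horizontal axis, Mb), coloured by span. Most peaks stand at 1 row, and the peak with 6 rows lies in class III.

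In the region as a whole, peaks listed more than once and once had near median widths, 344 bp (313 to 401 bp) and 341.5 bp (323 to 362 bp). The shares 400 bp or wider were 40.7% (32.2 to 49.7%) and 34.7% (30.7 to 38.98%). In the rest of the short arm they were wider, with 386.5 bp (360 to 411 bp) for peaks listed more than once and 325 bp (319 to 330 bp) for those listed once. In class III the medians were 401 bp (290 to 698 bp) over 27 peaks and 370 bp (267 to 558 bp) over 17 peaks, with intervals that overlap. Repeated peaks also had the larger median in extended class I (377 against 326 bp) and class II (372 against 316 bp). They had the smaller median in class I (329 against 354 bp) and histone genes (335 against 358 bp). In these spans too the intervals overlap. The excess of wide peaks in the region was also present among peaks listed once, where 34.7% (30.7 to 38.98%) were 400 bp or wider, against 27.96% (26.6 to 29.4%) in the rest of the short arm. Among peaks listed once, the share was 39.55% for histone genes (32.6 to 46.9%) and 35.3% for class III (17.3 to 58.7%), so that the class III interval then includes the value of the rest of the short arm.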

How the data were processed

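The deposited file is a list of positions in 3 columns (chromosome, start, end), with no score. The authors ran MACS, per the file header, on trimmed reads without duplicates, with the knockdown H3K4me1 library as treatment and the control H3K4me1 library as control, a read and fragment length of 128 bp, a p-value cutoff of 1e-05 and an enrichment factor of 32. BWA and hg19 are named, without versions, per the submitters' processing notes. Depth is therefore unknown, all peaks count alike, and regions higher in control were not analysed here.

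Identical rows (180505 in all) were counted as 1 peak. Positions count from 1. The rest of the short arm runs from the first peak of chromosome 6 (101122) to the peak-free gap over 1 Mb that begins after 58757165, without the region. Intervals are exact Poisson for densities, exact conditional for ratios, Wilson for shares and binomial order statistics for medians (95%), by scipy 1.17.1, and cover counting error only. The code was checked on simulated peaks. Gene names and overlaps come from a RefSeq table of GRCh38.p14 by order, between limits taken from general knowledge of gene order, and its positions were not set against peaks. Named regions are the 2 widest peaks, densest 100 kb windows and longest empty stretches of each span, and those with most rows; ties went to the first by position. The stretches of 500 kb, the 400 bp threshold, runs of 4 and the gene limits were chosen after the peaks were seen. The members and lists were chosen with earlier results of these data known.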

Additional observations from a re-analysis of the deposited data

How the results depend on the processing

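Density ratios were recomputed in 48 combinations, some of them with another comparison than the rest of the short arm. Of the 48, 9 fell on the other side of 1 from the main ratio. With the autosomes outside the region as the comparison, the ratio was 1.37 for the whole region, 1.43 for histone genes, 1.65 for extended class I, 1.42 for class I, 0.944 for class III and 1.10 for class II, so that neither of the last 2 was then low. Against the rest of chromosome 6 the whole region had 1.09. Counting every deposited row gave 1.25 for class III, by construction, since its peaks have many rows, and 1.15 for the whole region. By covered bases the ratio was 1.09 for the whole region, 1.23 for histone genes and 0.902 for class III, whose interval includes the last value. Moving the borders by 100 kb left class III at 0.686 and 0.717 with intervals below 1, while those of class II (0.864 and 0.815) then included 1. With peaks at or above the median width alone, the intervals of extended class I (1.17, 0.928 to 1.46), class III (0.811, 0.538 to 1.18) and class II (0.820, 0.598 to 1.10) all included 1, as did that of class III against the rest of chromosome 6 (0.751, 0.545 to 1.01) and that of class II (0.872, 0.694 to 1.08). Merging peaks within 1 kb raised the median width of histone genes to 394 bp (rest of the short arm 348 bp) and, in an alternative added after the data were seen, the share 400 bp or wider to 49.0% there and 41.9% in the region (36.7% in the rest).

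The other shifts changed the level with the threshold, and in places also the order of the spans. Within 1 kb a neighbour was found for 25.2% of the region's peaks, 34.4% in histone genes, 18.2% in extended class I, 28.9% in class I, 18.2% in class III and 14.5% in class II (21.5% in the rest of the short arm). Within 20 kb the shares were 94.9, 94.3, 99.4, 96.0, 84.1 and 91.6% in the same order (96.3% in the rest). Extended class I was thus above the rest of the short arm at 5 kb (65.6% against 61.7%) but below it at 1 kb. Class II had the lowest share at 5 kb, and class III had the lowest at 20 kb. With peaks at or above the median width they were 45.8% in the region, 50.4% in histone genes, 48.1% in extended class I, 50.0% in class I, 32.1% in class III and 30.4% in class II (43.6% in the rest). Listing 3 or more times applied to 4.66% of the region, 1.56% of histone genes, 4.55% of extended class I, 4.03% of class I, 25.0% of class III and 2.41% of class II (0.710% in the rest). No paired analysis was possible because every group is a single library, and for the same reason no library could be left out. Unknown depth limits every density given here.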

Other observations

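Among 2730 windows of 1 Mb with at least 20 peaks over all chromosomes, the window from 26000001 to 27000000, in the histone gene span, ranked 18 by the share of peaks 400 bp or wider, at 49.4%. The window from 28000001 to 29000000, in extended class I, ranked 19, at 49.0%, and ranked 37 by number of peaks, with 104. The window from 31000001 to 32000000, most of it class III, ranked 79 by the share of peaks listed more than once, at 36.6%. By the share of wide peaks, other windows of the region stood far lower. The lowest was that from 29000001 to 30000000, in extended class I and class I, at rank 1511. Near it were those from 32000001 to 33000000 (20.3%, rank 1495) and from 33000001 to 34000000 (27.7%, rank 783). In or partly in the histone gene span, those from 25000001 to 26000000 (23.6%, rank 1163) and from 27000001 to 28000000 (28.6%, rank 697) were also low. Those from 30000001 to 31000000 (37.8%) and from 31000001 to 32000000 (39.0%) ranked 188 and 157. The window from 34000001 to 35000000, outside the region, ranked 8, with 54.5% of its 77 peaks at 400 bp or wider. These ranks were looked up after the values were seen and describe a single pair of libraries.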
